A study of Mus musculus with 18 samples.

Results

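Transcripts of 10 genes used as markers of intestinal epithelium were followed in 18 RNA-seq libraries of sorted mouse T cells: Reg3b, Reg3g, Fabp1, Fabp2, Krt8, Krt19, Krt20, Apoa1, Lypd8 and Epcam. They were chosen by symbol as markers of epithelial carry-over, and each matched 1 of the 38392 gene rows in the table. All groups shared the same donors and hosts. Donor T cells carried the label C57BL/6 TNa TNb RAG1-/- Foxp3GFP, a line of 1 T-cell receptor with a Foxp3-GFP reporter, and were CD4+ CD8α- Foxp3-GFP- when transferred. Hosts were C57BL/6 TCRa-/- TCRb-/-, which lack αβ T cells and keep their own epithelium and B cells. Cells were sorted from the small intestine 6 weeks later, from the intraepithelial compartment (IEL) and from the lamina propria (LP). In each site CD4+Foxp3+ (TR), CD4+CD8α+ (DP) and CD4+CD8α-Foxp3- (SP) cells were taken, with 3 libraries in each of the 6 groups. The labels call the libraries biological replicates without giving the animals behind them, and the ages of the mice were not used here. All p-values therefore measure the spread between these libraries, which may be technical in part.

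Enterocytes are the absorptive cells of the intestinal epithelium, and intraepithelial lymphocytes lie between them, above the basement membrane. The lamina propria is the connective tissue beneath that membrane. Reg3b and Reg3g encode secreted antimicrobial lectins of small-intestinal epithelium. Fabp1 and Fabp2 encode the liver and intestinal fatty-acid-binding proteins, which carry fatty acids within enterocytes, and Apoa1 encodes the main protein of high-density lipoprotein. Krt8, Krt19 and Krt20 encode keratins, the intermediate filaments of simple epithelium, and Lypd8 encodes a surface protein known from colonic epithelium, where it keeps bacteria away from the cells. Epcam encodes an adhesion molecule of the epithelial surface. Their levels were read here as a measure of epithelial RNA in each sorted library.

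Values are normalised counts, that is, whole reads times 1 factor per library. Libraries held 5093955 to 8851347 recovered reads, with a median of 5903164.5, and 18307 to 20376 genes were detected. The value of 3 reads, the most that a count of 0 allows, ran from 2.06 to 3.73 normalised counts. Such floors, and the intervals given below, cover counting error only. The labels held in the sorted genes. Foxp3 had 66.2 to 164 in TR libraries of both sites, against 0 to 39.9 in the other 12, and Cd8a had 3364 to 6444 in DP libraries, against 3.15 to 113 in the others. The 12 fixed T-cell genes were all detected in every library, with summed levels of 31115 to 40153. IEL TR library 1 stood apart: it had the fewest genes detected and the largest normalised total, 7467918, with Gm26870 taking 7.75% of it.

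The 9 markers other than Epcam were present in IEL libraries and close to absent in LP libraries. Their summed level was 52.53, 477.77 and 144.65 normalised counts in IEL TR, against 4.32, 6.22 and 8.53 in LP TR. It was 1773, 135 and 988 in IEL DP, against 8.24, 3.40 and 2.82 in LP DP. In IEL SP it was 1405, 259 and 93.3, against 9.37, 1.50 and 3.48 in LP SP. The lowest IEL library lay above the highest LP library, while IEL libraries of 1 group differed from each other by several fold. The sum rested on 50 to 1659 reads in IEL libraries and on 2 to 8 reads in LP libraries, or 7.03 to 294 ppm of all reads against 0.25 to 1.502 ppm. Reads on these 9 genes were a small share of each library, and the share of all epithelial RNA was not estimated. In bulk libraries, fewer cells of a type and less RNA per cell cannot be told apart.

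**Figure D1:**
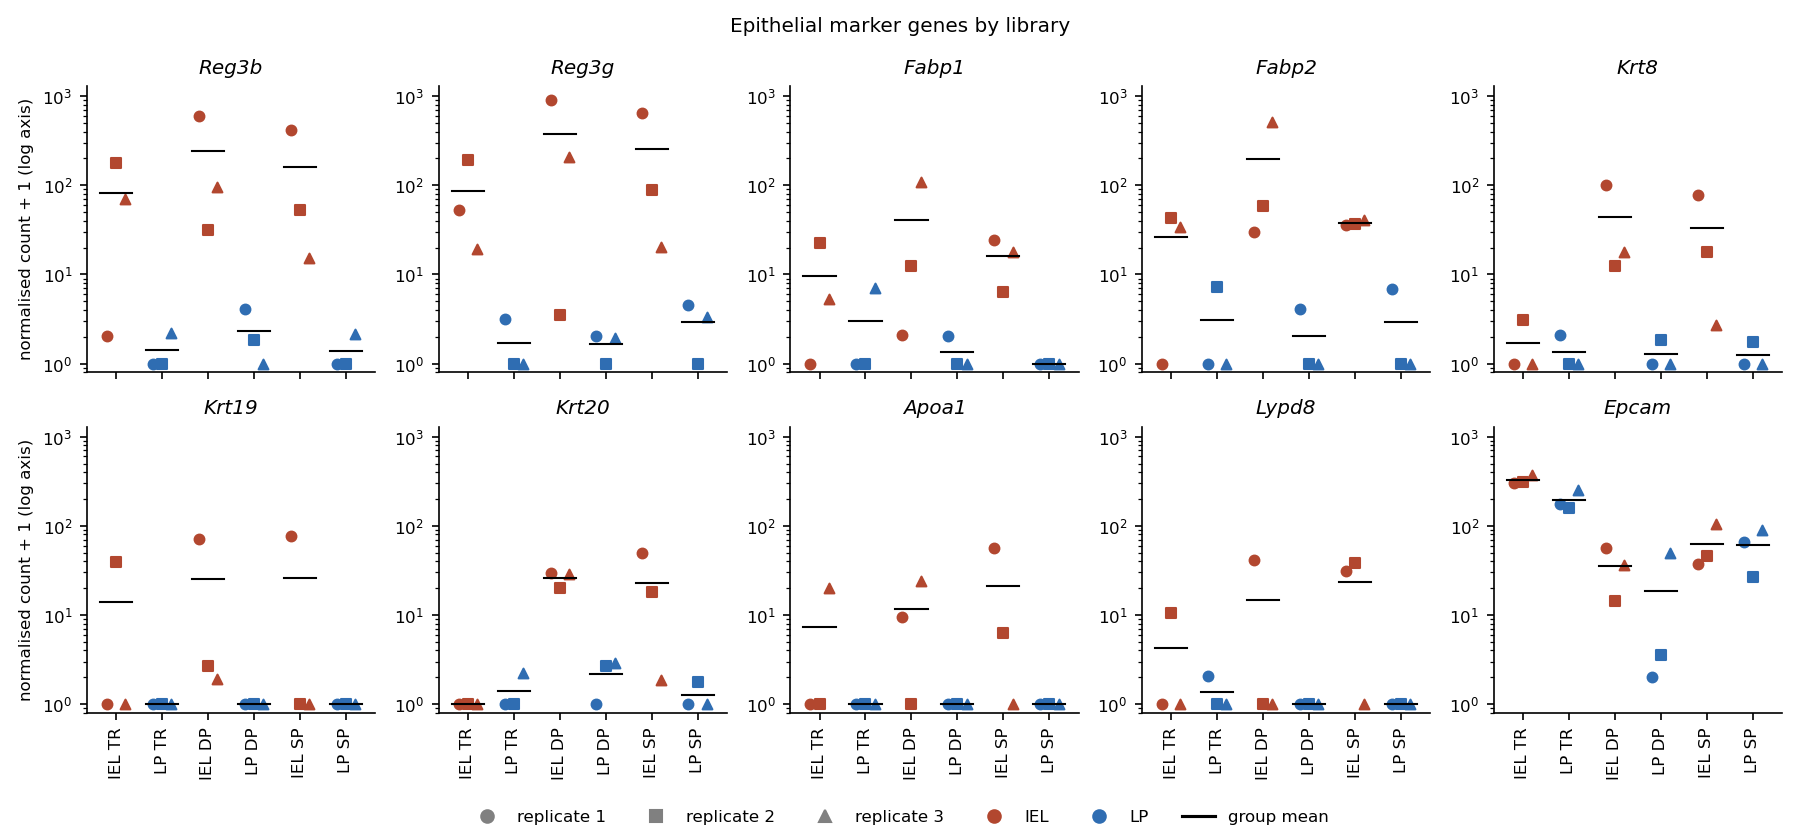
Normalised count + 1 of the 10 epithelial markers (log axis) in the 6 groups of 3 libraries, with points for libraries and bars for group means. The 9 markers other than Epcam sit near 0 in LP libraries and scatter widely in IEL libraries, whereas Epcam is high in TR libraries of both sites.

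Among the 10 markers, the antimicrobial lectins gave the most reads in IEL. Reg3b had 1.05, 175 and 69.7 normalised counts in IEL TR, 596, 30.6 and 93.9 in IEL DP, and 413, 52.2 and 14.4 in IEL SP, whereas all 9 LP libraries lay between 0 and 3.09. Reg3g had 51.5, 189 and 18.3 in IEL TR, 899.7, 2.48 and 209 in IEL DP, and 649, 88.4 and 19.5 in IEL SP, with 0 to 3.51 in LP. For each gene 8 of 9 IEL libraries were above every LP library. The exceptions were IEL TR library 1 for Reg3b and IEL DP library 2 for Reg3g. Over all libraries of a site, Reg3b had 1510 reads in IEL against 6 in LP, and Reg3g had 2169 in IEL against 9 in LP.

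Reg3b and Reg3g lie near each other on chromosome 6, on opposite strands (GRCm38, GENCODE M21: Reg3b at chr6:78370657-78373466 on the plus strand, Reg3g at chr6:78466269-78468872 on the minus strand), and both were present in IEL libraries and near 0 in LP libraries. Epcam, at chr17:87635979-87651129, was not. The promoters of these 3 genes are shown as a description. The pattern was not particular to the pair, since the other markers except Epcam had it too. Whether promoter sequence bears on it was not tested. Each runs from 250 bases before to 50 bases after the start in RefSeq on GRCm38, on the gene's own strand, at chr6:78370635-78370934 (plus), chr6:78468825-78469124 (minus) and chr17:87635729-87636028 (plus), and capitals mark TATAAA on either strand:
Reg3b: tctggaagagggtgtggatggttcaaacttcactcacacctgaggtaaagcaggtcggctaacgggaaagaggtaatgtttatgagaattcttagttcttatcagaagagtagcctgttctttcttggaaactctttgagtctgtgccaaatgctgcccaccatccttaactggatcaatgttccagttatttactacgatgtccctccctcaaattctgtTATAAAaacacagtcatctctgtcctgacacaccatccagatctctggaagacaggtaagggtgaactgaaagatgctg
Reg3g: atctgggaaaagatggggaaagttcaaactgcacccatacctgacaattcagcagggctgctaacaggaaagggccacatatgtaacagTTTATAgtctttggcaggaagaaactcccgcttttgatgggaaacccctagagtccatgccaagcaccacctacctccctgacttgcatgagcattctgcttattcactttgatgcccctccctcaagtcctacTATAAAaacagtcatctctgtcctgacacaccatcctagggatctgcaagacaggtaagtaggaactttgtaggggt
Epcam: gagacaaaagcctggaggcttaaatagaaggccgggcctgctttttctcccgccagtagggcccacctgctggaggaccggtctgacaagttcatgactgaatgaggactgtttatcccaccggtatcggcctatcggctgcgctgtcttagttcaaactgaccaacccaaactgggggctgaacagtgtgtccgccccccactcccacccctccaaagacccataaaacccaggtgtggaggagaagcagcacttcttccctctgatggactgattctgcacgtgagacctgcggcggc
Aligned end to end, the Reg3b and Reg3g windows were identical at 214 of 310 columns (69.0%), against 44.9% to 51.1% for the 5 other pairs of the Reg3b, Reg3g, Fabp2 and Epcam windows. Fabp2, which had the pattern, matched Reg3b and Reg3g at 50.6% and 46.3%, and Epcam matched them at 49.9% and 51.1%. TATAAA began 29 bases before the start in Reg3b and 27 bases before it in Reg3g, and Reg3g held a second match, on the minus strand, 161 bases before it.

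Of the 10 markers, 9 had an entry in the promoter table. TATAAA stood in 5 of those 9 genes (Fabp1, Krt20, Krt8, Reg3b and Reg3g), and in 13.6% of all 32851 promoter windows of 300 bases. A pattern for the gut homeobox factor CDX2, GNNATAAA, stood in 4 (Epcam, Fabp1, Fabp2 and Reg3b) and in 12.6% of all windows. In Reg3b it overlapped the TATAAA match. A pattern for the enterocyte nuclear receptor HNF4, CAAAGNNCA, stood in Fabp2 alone and in 6.36% of all windows. Both strands were searched, and a match describes letters in this window only.

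The lipid-handling genes gave fewer reads than the lectins and had their highest value elsewhere. Fabp2 had 0, 41.9 and 33.1 normalised counts in IEL TR, 28.85, 57.9 and 509 in IEL DP, and 35.05, 36.2 and 39.9 in IEL SP. All 9 LP libraries lay between 0 and 6.22. Only IEL TR library 1 fell within the LP range, and the 3 IEL SP libraries were close to one another, with a mean of 37.0 ± 2.52 (SD, n = 3). Fabp1 had 0, 21.3 and 4.36 in IEL TR, 1.07, 11.6 and 107 in IEL DP, and 23.0, 5.32 and 17.0 in IEL SP, against 0 to 6.09 in LP. IEL DP library 3 was the highest for both, while IEL DP library 1, the highest for Reg3b and Reg3g, had 27 reads of Fabp2 and 1 of Fabp1. Apoa1 had reads in 5 of 9 IEL libraries, up to 55.1, and in none of the 9 LP libraries.

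The 3 keratins and Lypd8 were uneven among IEL libraries. Krt8 reached 99.4 and Krt20 48.1 in IEL, against at most 1.08 and 1.88 in LP. Krt20 had 28.85, 19.0 and 27.9 in IEL DP and 48.1, 17.0 and 0.85 in IEL SP, but 0 in all 3 IEL TR libraries, where 0 reads allow 2.06 to 3.15. Krt8 had 99.4, 11.6 and 16.7 in IEL DP and 77.1, 17.0 and 1.70 in IEL SP, and was at 0, 2.06 and 0 in IEL TR. Thus Krt8 and Krt20 were near or at 0 in the same IEL TR libraries in which Reg3g had 51.5, 189 and 18.3. Krt19 was carried by 1 library of each IEL population, with 38.5 in IEL TR library 2, 69.5 in IEL DP library 1 and 75.1 in IEL SP library 1. It was at 0 in all 9 LP libraries. Lypd8 reached 40.6 in IEL and had 1 read in LP.

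Levels can be compared between genes only per length. Per kilobase of exon, the mean normalised count over the 9 IEL libraries was highest for Reg3b (141), Reg3g (112) and Fabp2 (90.0). Epcam followed at 64.7 and Fabp1 at 38.3, and the keratins, Apoa1 and Lypd8 lay between 8.17 and 12.8. These means hide a spread over libraries wider than the gaps between neighbouring genes in this order. In LP, Epcam had 41.5 per kilobase and the other 9 at most 1.75.

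Tests compared the sites within each population, to ask where epithelial transcripts differed by site. They used limma on log2(normalised count + 1) over 15472 genes that reached 10 in 3 or more libraries, with Benjamini-Hochberg adjustment over all of them and a threshold of 0.05, two-sided. Folds on this scale understate the change of low genes. All 10 markers passed the filter, 9 of them only through IEL libraries, so counts of their calls describe these genes and test nothing further. Per library, 1 read stands for 0.687 to 1.24 normalised counts.

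In IEL DP against LP DP, 4 of 10 markers were called and all 4 were higher, where 3.13% of all genes tested were called higher and 7.19% in either direction. They were Reg3b (log2 fold change 5.95 ± 1.08, SE; adjusted p = 0.0247), Fabp2 (5.91 ± 1.12, adjusted p = 0.0277), Krt8 (4.52 ± 0.87, adjusted p = 0.0294) and Krt20 (3.71 ± 0.59, adjusted p = 0.0160). Their libraries did not overlap between the sites, and the same held for Reg3g, Fabp1 and Krt19, which did not pass. Of all genes tested, 15.4% lay higher without overlap. Yet the lowest IEL DP library had 3 reads of Reg3g, 1 of Fabp1 and 1 of Krt19. The highest LP DP library had 1, 1 and 0, so only the library factor separated Fabp1. The calls were not steady: 0 to 2 markers passed when any 1 of the 6 libraries was left out, and without IEL DP library 2 Reg3g passed too (8.11 ± 0.74, adjusted p = 0.00677). With the library totals set equal, all calls split into 568 higher and 437 lower, against 484 higher and 628 lower without this step, and the 4 markers still passed.

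In IEL SP against LP SP, 4 markers were again called higher, against 2.25% of all genes tested called higher and 5.93% in either direction. Reg3b (5.75 ± 1.13, adjusted p = 0.0294), Reg3g (5.43 ± 1.21, adjusted p = 0.0451), Fabp1 (3.80 ± 0.74, adjusted p = 0.0281) and Fabp2 (4.32 ± 0.81, adjusted p = 0.0250) passed. Krt8 and Krt20 did not, at 3.70 ± 1.20 and 3.29 ± 1.21 (adjusted p = 0.124 and 0.166), although their libraries did not overlap, as for 14.1% of all genes. IEL SP library 3 had 2 reads of Krt8 and 1 of Krt20, against 1 of each in LP SP library 2, so only the library factor separated Krt20. Leaving out 1 library gave 0 to 5 calls. The 0 came without IEL SP library 1, LP SP library 2 or LP SP library 3, and the 5 came without IEL SP library 3, when Krt8, Krt20 and Lypd8 passed.

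In IEL TR against LP TR, limma called 0 of 10 markers, where 0.601% of all genes were called in either direction; 3 markers had an unadjusted p under 0.05, and edgeR's quasi-likelihood test called 0. Reg3g was the nearest, at 5.30 ± 0.99 (adjusted p = 0.102), with no overlap between the libraries, as for 8.79% of all genes, and Reg3b stood at 4.50 ± 1.70 (adjusted p = 0.344). Without IEL TR library 1, Reg3b was called (6.42 ± 0.73, adjusted p = 0.0374). In simulated data, with 1 spread per group for all genes and changes in abundant genes only, 0% of 4-fold changes were recovered here. The share was 95% for DP and 93% for SP. Yet the simulation called 0 genes for TR, where the libraries themselves gave 93 calls, so it cannot say what could be found for these markers. The site difference of TR was not shown to differ from that of SP: the interaction of site with TR against SP called 0 markers in limma and in edgeR, with 2 at an unadjusted p under 0.05, and 0.168% of all genes. The interaction with DP against SP also called 0 markers in both, with 0 unadjusted, and 0% of all genes.

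**Figure D2:**
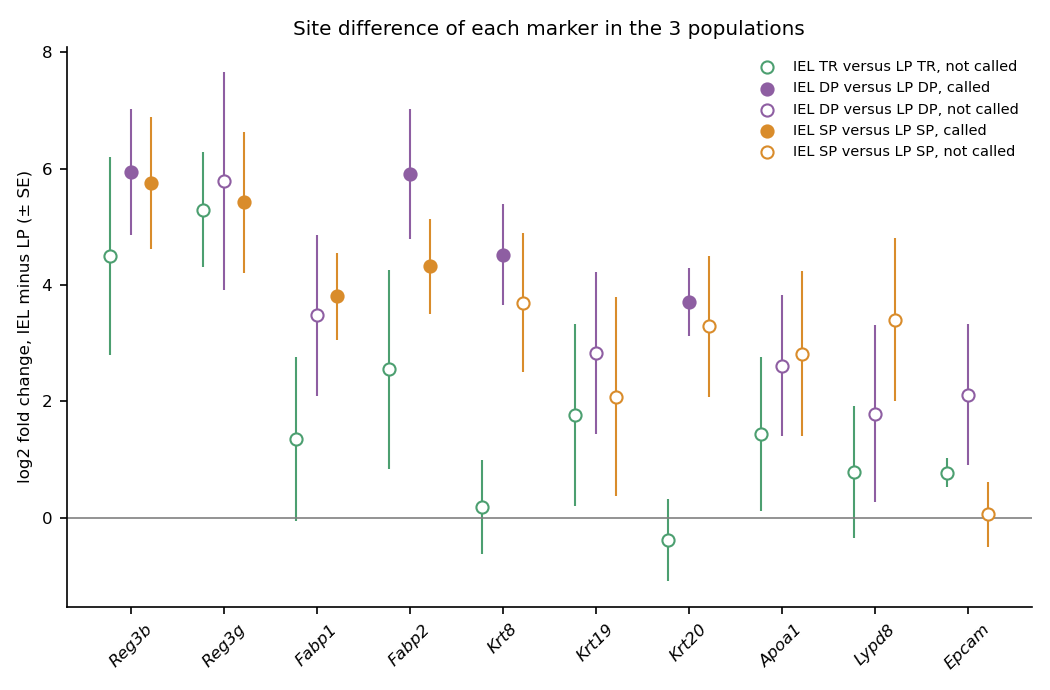
Log2 fold change (log2(normalised count + 1), IEL minus LP, ± SE) of each marker in TR, DP and SP cells, from limma on 3 libraries a group, with filled points for adjusted p under 0.05. Reg3b and Reg3g lie between 4.50 and 5.95 in all 3 populations, while Krt8 and Krt20 lie near 0 in TR and between 3.29 and 4.52 in DP and SP.

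Averaged over the 3 populations, 6 of 10 markers were higher in IEL than in LP, where 8.86% of all genes were called higher and 19.1% in either direction. The log2 fold changes were 5.50 ± 0.94 for Reg3g (adjusted p = 0.000809), 5.40 ± 0.86 for Reg3b (adjusted p = 0.00044) and 4.26 ± 0.80 for Fabp2 (adjusted p = 0.00175). Fabp1 rose by 2.88 ± 0.76 (adjusted p = 0.0152), Krt8 by 2.80 ± 0.61 (adjusted p = 0.00486) and Krt20 by 2.20 ± 0.54 (adjusted p = 0.00955). Apoa1, Krt19 and Lypd8 had 2.30, 2.23 and 1.99 and did not pass (adjusted p = 0.0702, 0.142 and 0.133). Against the floor of 3 reads per library, mean levels were at least 6.55-fold higher in IEL for Krt19 and at least 3.93-fold higher for Apoa1, since both were at 0 in every LP library. By edgeR 7 markers were called: Krt20 was not, the other 5 calls held, and Lypd8 and Apoa1 passed too (log2 fold change 5.71 and 6.52, adjusted p = 0.0427 and 0.0473). Each of the 6 calls held when any 1 of the 18 libraries was left out, and the libraries of the sites overlapped for every marker.

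Among IEL libraries both the amount and the mix of these transcripts varied. Of all reads on the 9 markers, Reg3g made up 50.8% in IEL DP library 1, 46.2% in IEL SP library 1, 39.6% in IEL TR library 2 and 34.2% in IEL SP library 2. Fabp2 led instead in IEL DP library 2 (42.9%), IEL DP library 3 (51.5%) and IEL SP library 3 (42.7%). Reg3b led in IEL TR library 3 with 48.2%, and in IEL TR library 1 Reg3g supplied 49 of 50 reads. Replicates of 1 population thus had different leading genes. Some same-numbered libraries of different populations were alike. IEL DP and IEL SP libraries 1 had Reg3b at 33.6% and 29.4% and Krt8 at 5.61% and 5.49%, and Fabp2 led in libraries 3 of both. Libraries 2 of DP and SP had different leading genes, and IEL TR library 3 was led by Reg3b. Whether the mix follows the replicate number was not tested.

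The ratio of Reg3g to Reg3b shows the same spread within a single gene family. Reg3g supplied 61.1%, 62.9% and 57.5% of the reads on the pair in IEL SP libraries 1, 2 and 3, and their 95% Clopper-Pearson intervals overlapped. It supplied 60.1%, 7.50% and 69.0% in IEL DP, and 49 of 50 reads, 51.9% and 20.8% in IEL TR. The interval in IEL DP library 2 was 1.57% to 20.4% and in IEL TR library 1 was 89.4% to 99.9%, so counting error does not span the gap between them. The pair was read from 40 and 50 reads there. No window of 50 bases was shared with another gene in the annotated transcripts for 9 of the 10 markers, so reads of Reg3b and Reg3g can be told apart over windows of that length. Krt8 shared 26.9% of its windows with the pseudogene Krt8-ps, and its counts are less certain. Fabp2 overlaps the antisense gene 4933405D12Rik, and strand was not marked by the kit the labels name. That gene had 4.65 in the library with the most Fabp2 and 4.24 to 21.2 over all libraries.

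**Figure D3:**
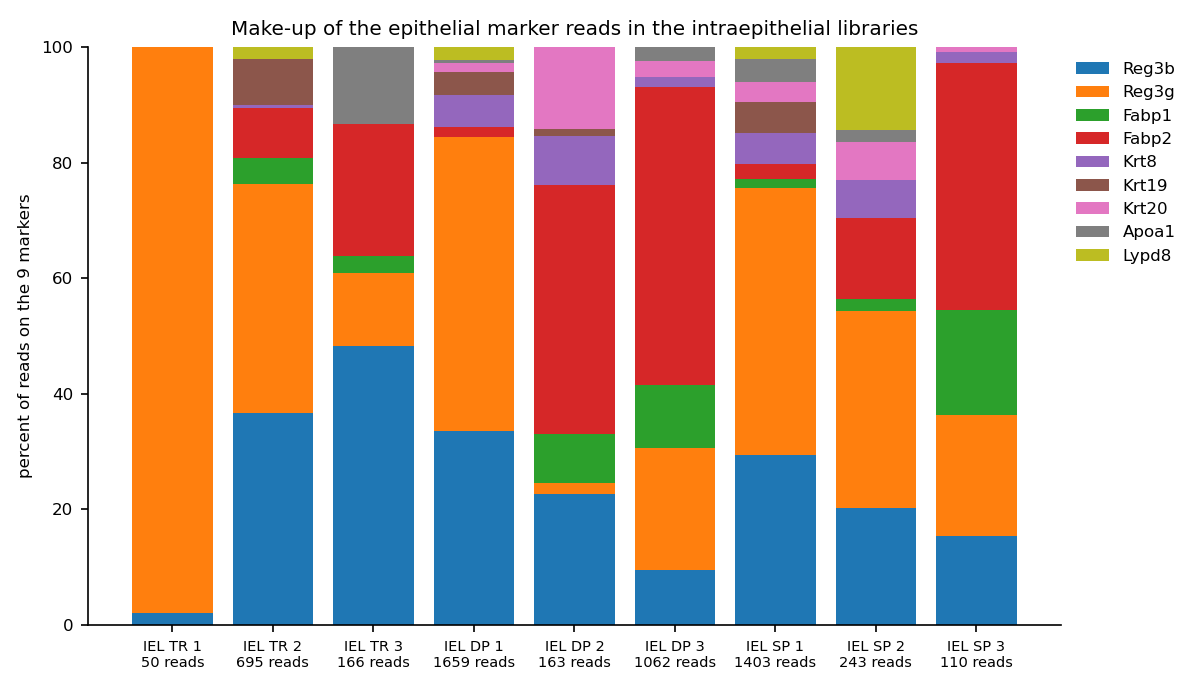
Share of each marker among all reads on the 9 markers other than Epcam (percent, stacked) in the 9 IEL libraries, with the read total under each bar. Reg3g takes 49 of 50 reads in IEL TR library 1, and Fabp2 takes 51.5% of 1062 reads in IEL DP library 3.

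Across the 18 libraries the 36 pairs of these 9 genes had Pearson correlations of log2(normalised count + 1) between 0.27 and 0.93, with a median of 0.68. All pairs share the gap between the sites. Within the 9 IEL libraries the lowest was -0.13, the median 0.50 and the highest 0.94, and 35 of 36 were above 0. These points share libraries and depth, and are given as a description.

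Epcam levels separated TR from the other populations in both sites. It had 305, 312 and 372 normalised counts in IEL TR and 176, 157 and 254 in LP TR. In DP cells it had 55.6, 13.2 and 35.3 in IEL and 1.03, 2.55 and 49.0 in LP. In SP cells it had 36.05, 44.7 and 103.5 in IEL and 65.6, 25.4 and 88.1 in LP. All 6 TR libraries, from 157 to 372 with a median of 279.6, lay above all DP libraries (1.03 to 55.6, median 24.3) and all SP libraries (25.4 to 103.5, median 55.2). The DP and SP libraries overlapped. The share of all genes that set TR apart from both DP and SP in this way was not counted.

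In IEL TR against IEL SP, Epcam was the 1 marker called, at 2.55 ± 0.43 on the log2 scale (330 ± 37.0 against 61.4 ± 36.7, SD, n = 3 each; limma adjusted p = 0.0419), and its libraries did not overlap, as for 12.6% of all genes. Of all genes tested, 1.49% were called higher and 2.91% in either direction there, 231 higher and 219 lower, or 164 higher and 236 lower with totals set equal. That call was lost with equal totals, with edgeR and when any 1 library other than IEL SP library 3 was left out, with the fold between 2.25 and 3.00. In LP TR against LP SP the fold was 1.84 ± 0.46 (196 ± 51.7 against 59.7 ± 31.8) and Epcam did not pass (adjusted p = 0.0670), though the libraries did not overlap, as for 13.4% of all genes. Here limma called 0 of 10 markers, with 1 at an unadjusted p under 0.05, edgeR called 0, and 5.52% of all genes were called.

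A fit over both sites was added after these values were seen. Averaged over IEL and LP, Epcam was higher in TR than in SP by 2.19 ± 0.34 on the log2 scale (adjusted p = 0.00205), with 6 of 6 TR libraries above all 6 SP libraries, as 3.32% of all genes tested were. It was the only marker called, against 6.96% of all genes called higher and 11.8% in either direction, 1077 higher and 741 lower, or 780 higher and 876 lower with totals set equal. The fold kept between 1.94 and 2.42 and passed in each of 9 alternative fits and without each of the 12 libraries. The same kind of fit of DP against SP gave -1.89 ± 0.72 for Epcam, which did not pass (adjusted p = 0.374; 0 of 10 markers by limma and by edgeR, 1 at an unadjusted p under 0.05, 1.02% of all genes). Without LP DP library 3, which had 49.0 against 1.03 and 2.55 in its group, that difference was -2.60 ± 0.47 and passed (adjusted p = 0.0349).

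By site, Epcam did not pass in any population: 0.77 ± 0.25 in TR, 2.12 ± 1.21 in DP and 0.06 ± 0.56 in SP (adjusted p = 0.269, 0.335 and 0.974). In TR all 3 IEL libraries, at 305 to 372, lay above all 3 LP libraries, at 157 to 254, as they did for 8.79% of all genes. Its average over the populations was 0.98 ± 0.52 (adjusted p = 0.215), and 1.45 ± 0.33 without LP DP library 3, which passed (adjusted p = 0.00853). The site difference of TR against SP was 0.71 ± 0.68 (adjusted p = 0.837). Its Pearson correlations with the other 9 markers ran from -0.29 to 0.22 over 18 libraries, with a median of 0.05, and from -0.90 to 0.01 over the 9 IEL libraries. With the sorted genes they were 0.76 for Foxp3, -0.73 for Cd8a and -0.36 for Cd4, over points that form 3 sorted populations.

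**Figure D4:**
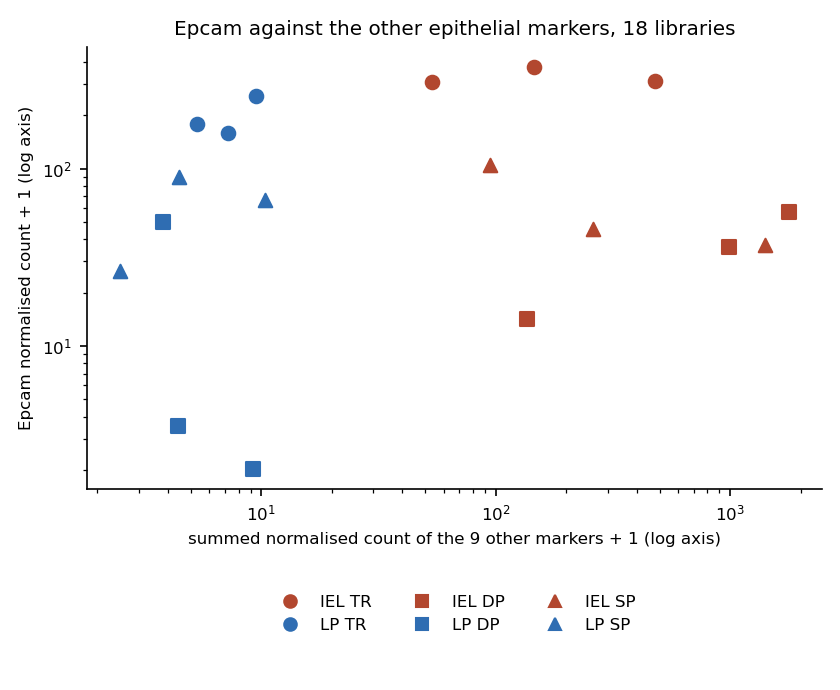
Epcam normalised count + 1 against the summed normalised count + 1 of the 9 other markers (both log axes) in 18 libraries, with colour for site and shape for population. IEL and LP libraries separate along the horizontal axis (52.5 and above against 9.37 and below), and TR libraries lie at the top in both sites, at 157 to 372.

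Some B-cell transcripts also moved with the TR libraries. The 11 genes of B and plasma cells in the table had summed levels of 585 to 1841 in IEL TR and 582 to 2260 in LP TR, against 12.7 to 81.8 in the DP and SP libraries. Ighm, the heavy chain of immunoglobulin M, led the list by mean level, with 577, 931 and 1432 in IEL TR and 477, 693 and 455 in LP TR, and supplied nearly the whole sum of 585 in IEL TR library 1. Of 6 such genes tested, 1 was called higher in TR than in SP in IEL, where 1.49% of all genes were, and 2 in LP, where 5.52% of all genes were called in either direction. Ighm passed in IEL (6.72 ± 0.50, adjusted p = 0.00433) and in LP (5.18 ± 0.68, adjusted p = 0.00620). Cd79b, a chain of the B-cell receptor, passed in LP (5.09 ± 0.95, adjusted p = 0.0252), and Cd79a had means of 26.8 and 10.1 in IEL TR and LP TR. The plasma-cell genes Igha and Igj had means of 0.23 and 0 in IEL TR, and of 209 ± 348 and 163 ± 267 in LP TR. Of the 11 genes, 4 to 8 were detected in IEL TR libraries, 7 to 11 in LP TR libraries and 3 to 7 in the DP and SP libraries. Their part in the Epcam difference was not tested.

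Cdh1, which encodes E-cadherin, another adhesion molecule of epithelium, went the opposite way to Epcam. It had 9.46, 3.44 and 3.49 normalised counts in IEL TR and 3.25, 7.46 and 3.65 in LP TR. In all 12 DP and SP libraries it had 93.3 to 408, with no overlap with TR. The share of all genes that lay lower in TR without overlap was not counted. Cdh1 was lower in TR than in SP in IEL (log2 fold change -5.69 ± 0.48, adjusted p = 0.00568) and in LP (-4.95 ± 0.49, adjusted p = 0.00223). Of all genes tested, 2.91% were called in either direction in that IEL comparison and 5.52% in that LP comparison. By site, Cdh1 had 294 ± 94.9 in IEL DP against 293 ± 82.4 in LP DP, and 315 ± 94.9 in IEL SP against 187 ± 94.8 in LP SP (SD, n = 3 each; log2 fold change 0.84 ± 0.42, adjusted p = 0.289). In those LP libraries the 9 markers summed to at most 9.37.

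A wider list of 32 other enterocyte genes, with Cdh1 among them, had 8 to 23 members detected in IEL libraries and 6 to 12 in LP libraries, with summed levels of 107 to 924 (median 477) against 59.5 to 472 (median 294). Only 10 of the 32 passed the filter on low values. Of those, 2 of 10 were higher in IEL DP than in LP DP, where 3.13% of all genes were: Vil1, for the microvillus protein villin (3.93 ± 0.54, adjusted p = 0.00970), and Lgals4, for galectin-4 (1.89 ± 0.41, adjusted p = 0.0404). None of the 10 was called by limma between the sites in SP or in TR, where 5.93% and 0.601% of all genes were, with 1 and 2 at an unadjusted p under 0.05. Averaged over populations 1 of 10 was higher, a share near the 8.86% of all genes: Rbp2, for the cellular retinol-binding protein of enterocytes (3.09 ± 0.72, adjusted p = 0.00726), which had means of 26.0, 46.6 and 9.36 in IEL TR, DP and SP, against 3.65, 0 and 2.34 in LP. The median log2 fold change of the 10 was 0.93 in that comparison, beside 2.55 for the 10 markers and 0.00 for all genes tested. The filter kept 9 of the markers only through IEL libraries, and Rbp2 mainly so (median 13.9 there, 0 in LP). These calls and medians therefore describe the genes and test nothing further. By mean level the wider list was led by Cdh1 (183), Lgals4 (92.2) and Krt18 (18.9), a keratin that partners Krt8. Unlike Krt8, Krt18 had reads in all 9 LP libraries and in 6 of 9 IEL libraries. Its means were 13.75, 15.0 and 39.6 in IEL TR, DP and SP, against 10.2, 21.5 and 13.3 in LP. Lgals4 had means of 115, 162 and 78.7 in IEL, against 65.5, 46.3 and 85.55 in LP. For Vil1 the means were 15.2, 14.3 and 0.95 in IEL TR, DP and SP, against 2.43, 0 and 9.75 in LP. Its mean in SP was thus higher in LP.

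Between populations in IEL, the 9 other markers did not pass. All 9 log2 fold changes of IEL TR against IEL SP were below 0, with a median of -1.50 beside -0.05 for all genes. These genes tended to rise together across IEL libraries, so the 9 signs are not separate observations. Libraries of the groups overlapped for all of them but Krt20. Their summed levels overlapped too, at 52.5 to 478 in IEL TR against 93.3 to 1405 in IEL SP. Limma and edgeR called 0 of the 9. Krt8 (-3.43 ± 1.32, adjusted p = 0.269) and Krt20 (-3.56 ± 1.26, adjusted p = 0.232) had an unadjusted p under 0.05. In simulated data 0% of 4-fold changes were recovered in this comparison. The simulation called 0 genes there, where the libraries themselves gave 450 calls, so it cannot say what could be found for these markers. In a fit of all 18 libraries at once Krt8 and Krt20 passed (adjusted p = 0.0486 and 0.0219) and Epcam did not. That fit shares 1 spread over all groups, which can be too small for comparisons with IEL TR. Both keratins lay near 0 in all LP libraries, and their SEs were 1.06 and 0.93 there, against 1.32 and 1.26 above. These passes therefore do not settle whether Krt8 and Krt20 were lower in IEL TR. In IEL DP against IEL SP limma called 0 of 10 markers, with 0 unadjusted, edgeR called 0, and 0.0582% of all genes were called. The fold changes ran from -1.61 ± 1.89 for Lypd8 to 1.34 ± 0.94 for Fabp2. In LP DP against LP SP limma and edgeR called 0 of 10, with 1 unadjusted, and 0.291% of all genes. The libraries of IEL DP and IEL SP overlapped for all 10 markers.

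The genes whose log2 values over the 18 libraries were most like the mean of the 10 standardised markers were Commd6 (Pearson r = 0.86), Fgfr1op2 (0.85), Gm8839 (0.84), Pagr1a (0.84), Taok1 (0.82), Nsd1 (0.82), Psd4 (0.82), Med1 (0.82), Saysd1 (0.81) and Eif1b (0.81). They were sought among 12339 other genes with a mean of at least 20, which only 2 of the 32 other enterocyte genes reached, and 0 of the 10 stood on a fixed list. Their mean normalised counts in LP were 32.8 to 1578, against 0 to 1.69 for the 9 markers other than Epcam and 91.0 for Epcam. For Epcam alone, likeness chosen after its values were seen, the nearest were Gm4956 (0.91), Psen2 (0.90), Eif4ebp1 (0.87) and Il17rb (0.86), and again 0 of the first 10 were on a fixed list.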

How the data were processed

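RNA-seq libraries were made with Nextera XT and multiplexed on 6 and 3 index adapters, per the labels' protocols. TopHat and HTSeq, and the mm10 build (GRCm38), are listed without versions or roles in the submitters' processing notes. The deposited signal is 1 normalised count per gene and library, and how the authors computed the factors is not given in the sources used here. It was settled from the deposited signal itself that every library has 1 step of which 100% of its values above 0 are whole multiples (tolerance 0.1 of a step), and dividing by the step recovered whole reads.

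Members and gene lists were chosen with earlier results of these data known. The named genes were mostly the 10 markers, the sorted genes and the 10 genes most like the markers. From the lists they came from the 3 most abundant genes and from those called among the 4 smallest p-values of a comparison. Not every such gene is given. Igj, Cd79a and Itgax are among the named genes outside these rules. Log2(normalised count + 1) was fitted with limma 3.58.1 (R 4.3.3; trend, robust) on the groups compared only, for 15472 genes that reached 10 in 3 or more libraries. The threshold was 0.05 on p-values adjusted by Benjamini-Hochberg. All adjusted p-values are from limma unless edgeR 4.0.16, run on the recovered reads, is named. An exact permutation test of 3 libraries against 3 cannot go below 0.1, and none was run.

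Simulated data with 200 changed genes were used to test each fit. They had 1 spread per group for all genes, and only the more abundant genes were changed. Alternatives were other pseudocounts, filters and scalings, edgeR, a replicate block, 1 fit of all libraries, and leaving out each library. Same-numbered libraries were not treated as paired. Of the gene identifiers, 36639 were found in GENCODE M21. Promoters came from RefSeq on GRCm38, and 9 of 10 markers matched.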

Additional observations from a re-analysis of the deposited data

How the results depend on the processing

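Depth limits the LP values: the 9 markers other than Epcam rested on 2 to 8 reads in a library. Across 16 calls of single markers and 315 alternative fits, 245 kept the call, 70 lost it and 0 reversed it. In IEL DP against LP DP (4 called), 0 markers passed with no filter on low values, 1 with the filter at 50, where 3 markers were left to test, 1 with the replicate block and 0 to 2 without 1 library. In IEL SP against LP SP (4 called), 2 passed with a pseudocount of 4, 0 with no filter, 2 with the filter at 50, 0 with the replicate block, 1 with all 18 libraries in 1 fit and 0 to 5 without 1 library. In IEL TR against IEL SP (1 called), 0 passed with no filter, equal totals, edgeR or the replicate block, 2 with all 18 libraries and 0 to 1 without 1 library. In LP TR against LP SP (0 called), Epcam alone passed with the filter at 50 (adjusted p = 0.0423) and with the replicate block (adjusted p = 0.0466), and in IEL TR against LP TR (0 called) leaving out 1 library gave 0 to 1. Averaged over populations (6 called), 2 passed with the filter at 50 and 6 to 8 without 1 library. In the fits over both sites, chosen after seeing the data, leaving out 1 library gave 1 to 2 markers for TR against SP (1 called) and 0 to 1 for DP against SP (0 called). The cause of these changes was not tested, beyond fewer markers left to test at 50. Same-numbered libraries were not treated as paired because their residual correlations were small, at 0.00053 to 0.0887 over 45 pairs. All 45 were above 0, however, and 18 of 18 libraries correlated best with their own number. A link between same-numbered libraries thus remains possible, and the replicate block changed the calls as given above. Genes called overall ranged, over alternatives, from 0 to 1008 (93 as fitted) in IEL TR against LP TR, 442 to 1379 (1112) in IEL DP against LP DP, 265 to 1123 (917) in IEL SP against LP SP, 63 to 1799 (450) in IEL TR against IEL SP, 219 to 920 (854) in LP TR against LP SP, 0 to 56 (9) in IEL DP against IEL SP, 14 to 60 (45) in LP DP against LP SP, 13 to 58 (26) for the TR interaction and 94 to 186 (158) for DP against SP over both sites. Leaving out 1 library moved these counts to 0 to 159, 419 to 655, 427 to 677, 37 to 629, 460 to 634, 0 to 1, 5 to 21, 0 to 73 and 100 to 139 in the same order, so the shares of all genes called move with them. Equal totals shifted the median log2 fold change of all genes to 0.14 in IEL DP against LP DP (0.05 as fitted), to -0.20 in IEL TR against IEL SP (-0.05) and to -0.14 for TR against SP over both sites (-0.05), far less than the called folds. Without Epcam, chosen after seeing the data, mean marker sums were 225 in IEL TR and 6.36 in LP TR, 965 in IEL DP and 4.82 in LP DP, and 586 in IEL SP and 4.78 in LP SP, against 555, 202, 999.8, 22.3, 647 and 64.5 with it.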

Other observations

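Of 22 genes of goblet, Paneth, tuft, endocrine and stem cells, 3 to 9 were detected in a library, Spink4, Ang4, Mmp7 and Olfm4 were at 0 in all 18, and summed levels overlapped between the sites, at 110 to 160 in IEL and 104 to 209 in LP. Clca1, Lgr5 and Fcgbp led by mean level (59.6, 49.3 and 15.5), with 4 of the 22 tested. In limma averaged over populations, 1 of the 4 was called, where 19.1% of all genes were. Lyz1, a lysozyme of Paneth cells, was lower in IEL than in LP (log2 fold change -2.67 ± 0.88, adjusted p = 0.0461). It had means of 0.69, 0 and 0.28 in IEL TR, DP and SP. In LP they were 11.8 ± 20.4, 23.8 ± 29.6 and 29.6 ± 42.2 (SD, n = 3 each), with a median of 5.80 over the LP libraries. Sequence that Lyz1 may share with other genes, Lyz2 among them, was not checked. The other 18 were too low to test.

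Of 12 myeloid genes in the table, summed levels were 84.5 to 218 in IEL and 109 to 637 in LP. Xcr1, Lyz2 and Cd68 led by mean level (102, 36.3 and 21.7). Of 6 tested, 1 was called in IEL SP against LP SP, where 5.93% of all genes were, and 2 averaged over populations, where 19.1% were. Lyz2, the lysozyme of macrophages, was lower in IEL SP than in LP SP (-5.26 ± 0.96, adjusted p = 0.0228) and averaged over populations (-3.27 ± 0.89, adjusted p = 0.0184), as was C1qb, a complement chain of macrophages, averaged over populations (-2.76 ± 0.68, adjusted p = 0.0105). Itgax, the integrin CD11c, had differences of the opposite sign that did not pass, with means of 28.7 in IEL SP against 5.71 in LP SP (1.90 ± 0.73, adjusted p = 0.185), 43.9 in IEL DP against 12.5 in LP DP (2.25 ± 1.08, adjusted p = 0.253) and a fold of 1.20 ± 0.59 averaged over populations (adjusted p = 0.177). Of 12 stromal and endothelial genes 3 were tested. Vwf, Acta2 and Pecam1 led by mean level (75.7, 55.6 and 35.8). Pecam1, the adhesion molecule CD31, was lower in LP TR than in LP SP (-5.31 ± 0.74, adjusted p = 0.00821), where 5.52% of all genes were called. Summed levels overlapped between the sites, at 132 to 218 in IEL and 127 to 250.4 in LP. The B-cell, myeloid and secretory-cell transcripts are values beside the markers, and their part in any marker's level was not tested.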
